A study of Mus musculus with 8 samples.

Results

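Colon goblet cells of C57Bl/6 mice are described here on their own, from the 4 arrays labelled as colon goblet cells among the 8 arrays of the series. The members were chosen by their sample labels alone, not by any measured value. The other 4 arrays hold goblet cells of the small intestine and enter only the normalization. Epithelium was released from colon with EDTA. Cells were then sorted that lacked CD45 and CD24, carried cytokeratin 18 and bound the lectin UEA-I. Each sample was 1 Illumina array, and no treatment or mutant allele is given in the labels. They do not say whether a sample came from 1 mouse or a pool, nor give age or sex, so the spread below may be partly technical. The colon arrays are described as a single group, with no contrast and no p-value between groups.

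Goblet cells are the secretory cells of the intestinal epithelium that make the mucus layer. They build mucin glycoproteins in the endoplasmic reticulum, decorate them with O-linked sugars in the Golgi, store them in granules and release them with trefoil peptides and antimicrobial proteins. In the colon they are known for a thick mucus barrier towards the microbiota, and their identity depends on transcription factors such as Atoh1 and Spdef.

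All 6 goblet cell markers set for these cells were above background on all 4 arrays (detection p below 0.05). Values are given throughout as normalized log2 signal of the brightest probe of a gene, in the order of arrays 1 to 4. Tff3, the trefoil peptide of mucus, read 12.25, 12.26, 12.29 and 12.29. Clca1, a secreted metalloprotease of mucus, read 12.56, 12.94, 12.74 and 12.92. Krt18, the cytokeratin of the gate, read 11.33, 11.38, 11.17 and 11.15. These 3 varied by at most 0.38 between the highest and the lowest array. Spdef, an ETS-family factor needed for goblet cells to mature, read 8.33, 8.21, 8.81 and 8.21. Retnlb, a resistin-like antimicrobial protein of goblet cells, read 8.15, 8.66, 9.07 and 9.33, and Best2, a bicarbonate-conducting channel of colonic goblet cells, read 7.91, 8.83, 9.04 and 8.66. Retnlb and Best2 were the most uneven of the 6, and both were lowest on array 1. Muc2, Fcgbp and Epcam were not analysed here.

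The stretch of genome just before and after the transcription start is shown for 5 genes the results turn on: the gate keratin Krt18, the regulator Spdef, the brightly measured product Guca2a, and Lyz1 and Itln1, both uneven between arrays. Each is the RefSeq window of 250 bases before to 50 bases from the start, build GRCm38.p6, written 5′ to 3′ on the gene's strand. Capitals mark matches, on either strand, to 3 words: TATAAA (the TATA box), TTTATG (a core of caudal-type homeobox sites such as those of Cdx2) and GATAAG (a core of GATA factor sites). TTTATG and the reverse complement of TATAAA share their first 5 letters but not the last. A match is a description and not a site in use.
Krt18 (chr15:102027966-102028265, plus strand): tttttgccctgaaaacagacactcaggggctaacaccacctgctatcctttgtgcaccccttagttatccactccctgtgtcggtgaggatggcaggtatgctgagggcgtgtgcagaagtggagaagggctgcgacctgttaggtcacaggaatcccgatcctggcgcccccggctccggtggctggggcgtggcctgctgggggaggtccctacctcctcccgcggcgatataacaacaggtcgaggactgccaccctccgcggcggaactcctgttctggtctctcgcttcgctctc
Spdef (chr17:27728902-27729201, minus strand): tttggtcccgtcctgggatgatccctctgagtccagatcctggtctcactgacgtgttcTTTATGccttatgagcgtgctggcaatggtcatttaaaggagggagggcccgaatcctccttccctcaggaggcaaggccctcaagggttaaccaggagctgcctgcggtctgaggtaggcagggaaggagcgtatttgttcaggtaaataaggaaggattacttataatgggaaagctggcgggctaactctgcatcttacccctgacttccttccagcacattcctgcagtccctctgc
Guca2a (chr4:119637482-119637781, plus strand): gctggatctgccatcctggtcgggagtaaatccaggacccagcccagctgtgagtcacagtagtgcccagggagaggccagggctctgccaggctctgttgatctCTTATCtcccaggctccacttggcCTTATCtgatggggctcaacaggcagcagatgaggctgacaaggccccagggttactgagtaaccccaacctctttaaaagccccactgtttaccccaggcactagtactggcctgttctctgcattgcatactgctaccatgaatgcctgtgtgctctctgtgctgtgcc
Lyz1 (chr10:117292819-117293118, minus strand): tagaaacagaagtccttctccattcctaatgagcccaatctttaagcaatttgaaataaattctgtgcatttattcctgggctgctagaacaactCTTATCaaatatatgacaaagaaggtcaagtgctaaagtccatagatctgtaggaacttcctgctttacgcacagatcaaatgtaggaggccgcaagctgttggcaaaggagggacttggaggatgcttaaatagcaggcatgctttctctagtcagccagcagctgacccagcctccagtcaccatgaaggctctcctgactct
Itln1 (chr1:171535245-171535544, minus strand): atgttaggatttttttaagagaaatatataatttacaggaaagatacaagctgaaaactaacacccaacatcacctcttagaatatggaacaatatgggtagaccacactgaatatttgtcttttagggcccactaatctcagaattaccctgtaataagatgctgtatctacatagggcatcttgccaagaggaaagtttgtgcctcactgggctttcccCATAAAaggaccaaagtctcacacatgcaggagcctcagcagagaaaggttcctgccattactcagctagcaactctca

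Krt18 held none of the 3 words in this window. The window of Spdef held the caudal-type word once, on its own strand, at -191 relative to the start. That of Itln1 held it once on the opposite strand, at -29. There the strand of Itln1 reads CATAAA, which differs from TATAAA in the first letter only. Which of the 2 words this stretch of Itln1 stands for was not tested. The GATA word was found on the opposite strand 2 times before Guca2a and 1 time before Lyz1. Over all 32851 RefSeq windows, 13.6% held TATAAA, 11.9% TTTATG and 7.44% GATAAG. Over the 8092 windows found for 6264 of the genes above background on all 4 colon arrays, these shares were 7.65%, 6.76% and 5.25%. For the 98 windows found for 76 of the 100 genes with the brightest probes they were 12.2%, 9.18% and 14.3%. Some genes have several windows, so these are shares of windows and not of genes. The factors that bind such words were themselves measured: Cdx2 read 12.82, 12.63, 12.84 and 12.78, Cdx1 10.67, 11.14, 10.55 and 11.19 and Gata6 9.57, 9.47, 8.70 and 9.17, whereas Gata4 was not above background on any array.

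Of 16590 genes with a named probe, 7612, or 45.9%, were above background on all 4 colon arrays. This share is the background for the count of each gene list below. A further 2408 were above background on 1 to 3 arrays and 6570 on none. A gene listed as not above background is described by its probe, and this does not show that its transcript was absent. Per array, 8599 to 8920 genes were above background, with the fewest on array 3. Mean deposited signal was 386 to 477 intensity units, and the lowest normalized value of a probe above background was 5.38 to 5.61. Arrays 1, 2 and 4 correlated with one another at Pearson r of 0.963 to 0.967 over the 7612 genes, and array 3 with them at 0.933 to 0.955. Genes are not independent replicates and the points share probes and normalization, so these correlations only describe the arrays. Array 3 stood apart in this sense.

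Ribosomal, mitochondrial and mucus-related genes were among those with the brightest probes. A probe's brightness depends on its sequence as well as on its transcript, so ranks describe signal and not the number of molecules. Of the 100 brightest genes, 17 encoded ribosomal proteins, of 60 such genes with a probe. Rpl23, of the large ribosomal subunit, was brightest, at 15.12 on all 4 arrays, while its other probes had means of 13.38, 7.87 and 7.75. Quantile normalization gives equal values to probes that hold the same rank, so this equality does not measure the spread of Rpl23. The same limit applies to small SDs among the brightest genes. Goblet cell products were also among the 25 brightest. Guca2a, which encodes the peptide guanylin that stimulates fluid secretion, ranked 11 of 7612 and read 13.71, 13.92, 13.95 and 13.79. Zg16, a lectin-like protein of mucus that binds gram-positive bacteria, ranked 13 and read 13.54, 13.95, 13.77 and 13.67. Muc13, a membrane mucin, ranked 21 and read 13.46, 13.39, 13.51 and 13.73, and its second probe read 13.16, 13.07, 12.92 and 13.05. Slc12a2, the sodium-potassium-chloride cotransporter that feeds chloride secretion, ranked 15 at 13.66 ± 0.18 (mean ± SD, n = 4, as below). Its other probes differed widely in level, with means of 11.06, 7.19 and 4.93.

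Other genes among the 25 brightest were Fth1, the ferritin heavy chain, at 13.91 ± 0.26, and Dbi, an acyl-CoA binding protein, at 14.02 ± 0.06. Ckmt1, the mitochondrial creatine kinase, stood at 13.96 ± 0.30, and Atp2a3, a calcium pump of the endoplasmic reticulum, at 13.92 ± 0.07. The respiratory chain genes Cox6c, Cox7c and Ndufb8 stood at 13.53 ± 0.16, 13.39 ± 0.07 and 13.48 ± 0.12. Rab2a, a GTPase of transport between the endoplasmic reticulum and Golgi, stood at 13.56 ± 0.08, and Psmd4, a ubiquitin receptor of the proteasome, at 13.60 ± 0.05. Of epithelial structural genes, Krt8, the keratin partner of Krt18, ranked 27 at 13.33 ± 0.20, and the cadherin Cdh1 stood at 13.26 ± 0.07.

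Some of the brightest genes rest on a single bright probe that no other probe of the gene matched. Rchy1, a ubiquitin ligase, had probes at 14.38 and 8.09 on average. Gemin2, of the SMN complex, had probes at 13.68 and 7.35. Erich5 had probes at 14.28 and 5.22, the latter above background on 1 array. Ctcfl, the germ cell paralogue of Ctcf, read 14.83 on every array from its only probe, an equality again set by the quantile normalization. What these bright probes hybridised was not tested.

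**Figure D1:**
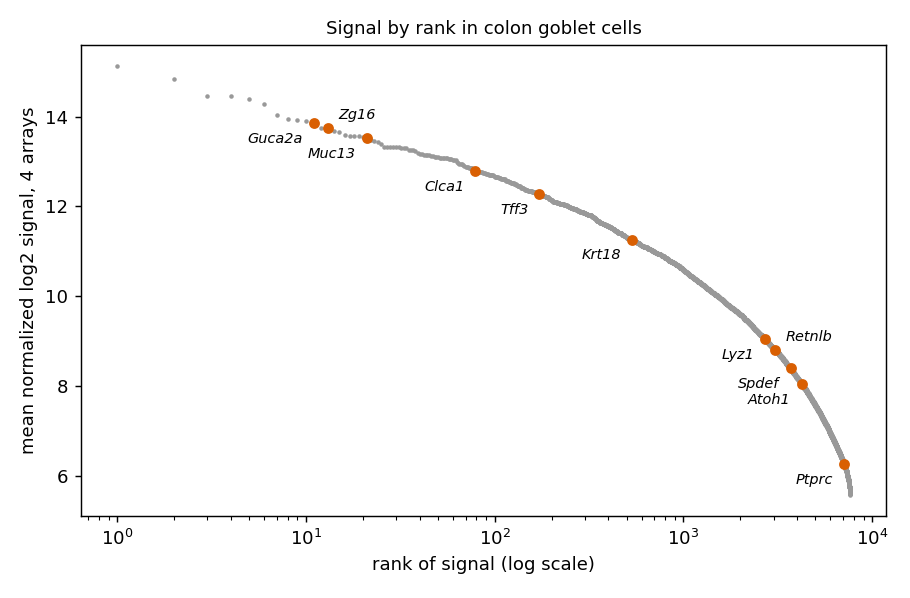
Mean normalized log2 signal of the brightest probe (vertical axis) against rank of signal (horizontal axis, log scale) for the 7612 genes above background on all 4 colon arrays. Named points mark goblet cell genes and other genes given in the text, and Guca2a, Zg16 and Muc13 lie among the 25 brightest.

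Products known from goblet cells were broadly present. The list holds secreted proteins and also membrane or intracellular ones, such as Muc13, Best2 and Rep15. Of 24 such genes with a probe, 21 were above background on all 4 arrays, where 45.9% of all genes were. The median difference between highest and lowest array, called the range here, was 0.44 log2 over the 21 genes and 0.63 over all 7612. Bright genes vary less in general, and the brightest of 4 equal bins of genes by mean signal, in which the median gene of the list lies, had a median range of 0.45, close to that of the list. Wfdc2, a secreted whey acidic protein, read 12.77, 13.11, 13.05 and 12.79. Spink4, a Kazal-type protease inhibitor of goblet granules, stood at 12.64 ± 0.19, and Klk1, a tissue kallikrein, at 12.48 ± 0.20. Agr2, a disulfide isomerase needed for mucin folding, read 10.97, 11.15, 11.65 and 11.41. Its lowest value, on array 1, lay 0.68 below its highest. Rep15, a Rab15 effector, stood at 11.76 ± 0.19, and Bcas1 at 11.45 ± 0.18. Reg4, a lectin of deep crypt secretory cells, read 8.68, 9.60, 9.20 and 9.39. The chemokine genes Ccl6 and Ccl9 stood at 8.44 ± 0.48 and 7.95 ± 0.15. Tff1 and Tff2, the trefoil peptides known from stomach, and the actin-severing gelsolin gene Gsn were not above background on any array. The summed linear signal of the list was 79218, 91337, 93578 and 86657 on arrays 1 to 4, and array 1 was the lowest for 13 of the 21 genes (22.9% of all genes).

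Among membrane and gel-forming mucins, Muc13 and Muc4 were the 2 of 9 genes above background on all 4 arrays. Muc4 read 8.23, 8.53, 9.65 and 9.35. Muc1 was above background on 3 arrays and was the most uneven mucin, at 4.74, 6.44, 8.08 and 5.77, with the highest value on array 3. Muc5ac and Muc6, the gel-forming mucins of the stomach, and Muc15 and Muc20 were not above background on any array.

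Transcription factors of the goblet lineage were detected for 10 of 15 genes on all 4 arrays. Foxa3, a forkhead factor of secretory cells, read 11.41, 11.17, 11.96 and 11.32. Klf4, a zinc finger factor of goblet cell differentiation, read 11.61, 11.96, 10.79 and 10.92. Foxa3 was highest and Klf4 lowest on array 3. Atoh1, the factor that commits cells to the secretory fate, read 7.73, 7.89, 8.57 and 7.95, and Gfi1, which acts downstream of it, stood at 7.80 ± 0.22. Creb3l1 and Creb3l4, membrane-bound factors of secretory capacity, stood at 10.30 ± 0.40 and 8.84 ± 0.22, and Xbp1, the factor of the unfolded protein response, at 10.41 ± 0.11. Hes1, the Notch target that opposes the secretory fate, was above background on 3 arrays at 5.85, 6.54, 5.48 and 5.94. Foxa2 was not above background on any array. Array 3 was the highest for 7 of the 10 genes, where it was for 37.7% of all genes.

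**Figure D2:**
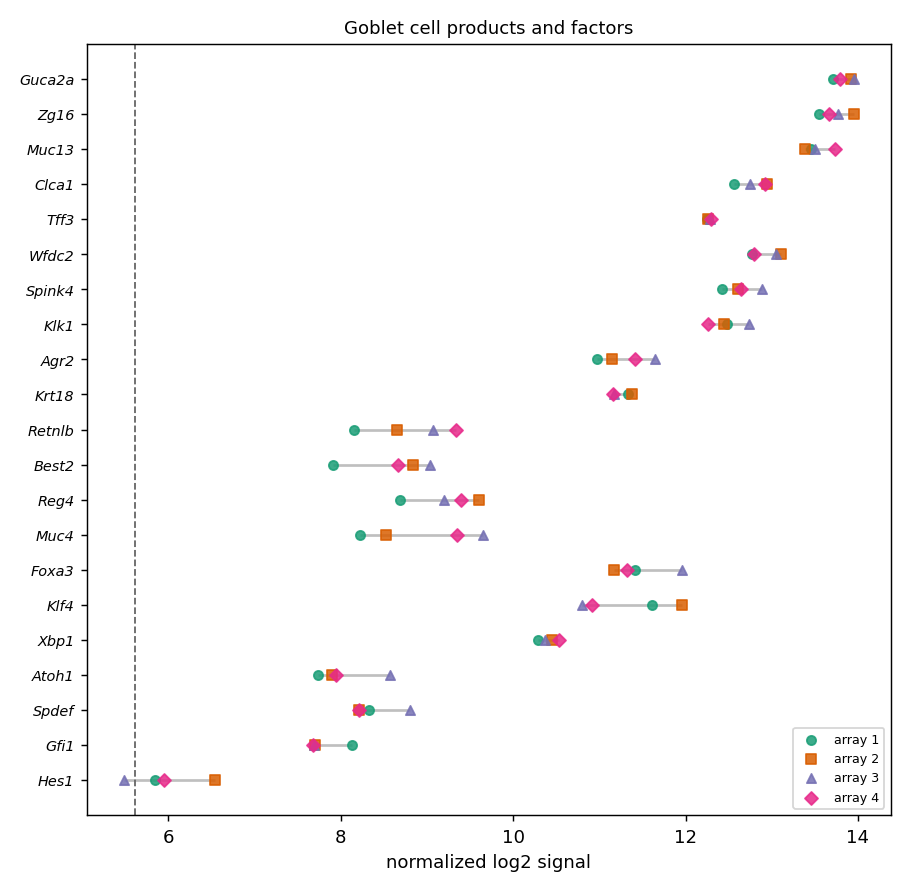
Normalized log2 signal (horizontal axis) of goblet cell products and transcription factors on the 4 colon arrays, 1 point per array. The dashed line marks the highest of the 4 lowest values above background, 5.61. The points of Tff3 nearly coincide, while those of Retnlb, Best2 and Klf4 spread over more than 1 log2.

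Enzymes that build mucin O-glycans were mostly above background. Of 46 genes with a probe, 40 were above background on all 4 arrays, with a median range of 0.68. This is above the 0.45 of the brightest of 4 equal bins by mean signal, in which the median gene of the list lies. Of the transferases that attach the first sugar, Galnt10 stood at 12.10 ± 0.12, Galnt12 at 9.96 ± 0.13 and Galnt3 at 10.02 ± 0.30. C1galt1, which makes core 1, stood at 9.16 ± 0.37 and its chaperone C1galt1c1 at 10.78 ± 0.11. B3gnt6, the core 3 enzyme, read 5.55, 6.19, 7.08 and 5.97. Gcnt1, a core 2 branching enzyme, stood at 10.96 ± 0.13, and B3gnt3, an extending enzyme, read 11.15, 11.99, 11.89 and 11.67. Among sialyltransferases, St6gal1 stood at 11.10 ± 0.19, St6galnac2 at 10.82 ± 0.19 and St6galnac6 at 10.41 ± 0.59, whereas St6galnac1 was not above background on any array. Fut2, which makes the fucose epitope that UEA-I binds, stood at 10.08 ± 0.24, and Fut1, its paralogue, was not above background on any array. B4galt1, a galactosyltransferase, had the largest range of the list, 2.56, at 9.18, 9.91, 7.35 and 8.96, and B3gnt7, which extends sulfated chains, read 8.10, 9.87, 9.27 and 8.93. B4galt1 was lowest on array 3 and B3gnt7 on array 1. Gal3st2, a sulfotransferase, stood at 9.72 ± 0.29, and Slc35a1, the carrier of CMP-sialic acid into the Golgi, at 11.27 ± 0.23.

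Folding and translocation genes of the endoplasmic reticulum were mostly above background, on all 4 arrays for 33 of 37 with a probe. Their median range was 0.52, against 0.45 over the brightest of 4 equal bins of genes by mean signal, in which the median gene of the list lies. Kdelr1, the receptor that returns chaperones to the endoplasmic reticulum, stood at 12.70 ± 0.24. The chaperones Hsp90b1 and Hspa5 stood at 11.76 ± 0.09 and 10.55 ± 0.29, and the disulfide isomerases Pdia3 and P4hb at 11.80 ± 0.12 and 11.63 ± 0.28. Ern2, which senses folding stress in mucus cells, read 11.04, 10.98, 11.71 and 11.35, and Ern1, its widely expressed paralogue, was above background on 3 arrays. Hyou1, an oxygen-regulated chaperone, had the largest range among the 33, 2.27, at 7.01, 7.95, 9.29 and 8.52, lowest on array 1 and highest on array 3. Of the members above background on fewer arrays, Sec61b, a subunit of the translocon, had a larger range, at 7.84, 8.85, 5.57 and 8.70, and was not above background on array 3.

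Genes of ion and fluid transport were detected for 19 of 23 on all 4 arrays. Of the 19, 9 had a range of at least 1 log2, which 20.0% of all 7612 genes had. Cftr, the chloride and bicarbonate channel, read 11.58, 11.41, 11.59 and 11.45, and Ano1, a calcium-activated chloride channel, stood at 9.65 ± 0.53. Atp12a, the colonic proton-potassium pump, stood at 10.57 ± 0.29 and the carbonic anhydrase Car2 at 12.03 ± 0.07. Aqp8, a water channel of surface colonocytes, read 7.55, 9.63, 8.24 and 9.03. Its second probe read 7.45, 9.87, 7.43 and 8.82, so that array 2 was the highest and array 4 the next in both. Scnn1a and Scnn1b, subunits of the epithelial sodium channel, stood at 6.54 ± 0.59 and 7.60 ± 0.65.

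Sensing and defence genes were detected for 13 of 29 members, or 44.8%, close to the share of all genes. Casp1, the inflammasome protease, read 12.17, 11.95, 12.03 and 11.99, and Il18, the cytokine it matures, stood at 8.92 ± 0.36. The adaptor Myd88 stood at 8.53 ± 0.24, Tlr1 at 8.34 ± 0.11 and Tlr4, the endotoxin receptor, at 7.51 ± 0.42, with its co-receptor Ly96 at 8.82 ± 0.21. Tlr2 was above background on 3 arrays at 7.08, 5.99, 5.05 and 6.71. Of the muscarinic receptors, through which acetylcholine acts on goblet cells, Chrm4 was above background on 2 arrays, at 5.69, 5.21, 5.89 and 5.35, and Chrm1, Chrm2, Chrm3 and Chrm5 on none. Egfr read 7.64, 7.97, 8.70 and 8.06.

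Antimicrobial genes were uneven, with a median range of 1.23 log2. Of 25 genes with a probe, 14 were above background on all 4 arrays, and 8 of the 14 had a range of at least 1 log2, which 20.0% of all 7612 genes had. Lyz1 and Itln1, with ranges of 5.23 and 2.71, belong both to this list and to the Paneth cell list below. The 2 lists are therefore not independent. Reg3b, a bactericidal lectin, read 12.68, 12.17, 13.10 and 13.45, and Reg3g, its relative, 9.38, 9.33, 9.30 and 10.64. Reg3g stood apart on array 4, by 1.27 log2 from the next array. Defb37, a beta-defensin, read 9.16, 6.56, 8.39 and 8.46 and was lowest on array 2. Reg1 was above background on 3 arrays, at 8.12, 4.91, 6.77 and 7.36. Pigr, the receptor that carries immunoglobulin A into mucus, was even at 11.21 ± 0.22. Lcn2, Nos2 and Ltf were not above background on any array.

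Factors of gut position were detected for 23 of 41 genes on all 4 arrays, or 56.1%, against 45.9% of all genes. Of the Hox genes, Hoxa7 read 11.03, 10.76, 11.64 and 11.14, Hoxa11 8.60, 9.28, 9.38 and 9.34 and Hoxa13 7.81, 8.74, 9.10 and 8.66. Hoxb5 read 11.13, 9.23, 10.67 and 10.32, lowest on array 2. Hoxd4 read 9.23, 7.16, 8.12 and 7.29 and was highest on array 1, above the next array by 1.11 log2.

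Transcripts known from absorptive colonocytes were present in the sorted cells on every array. Of 27 colonocyte genes with a probe, 25 were above background on all 4 arrays. Emp1, a membrane protein of the surface epithelium, stood at 12.76 ± 0.34, Ceacam1, an adhesion protein, at 12.70 ± 0.16, and Krt20, the keratin of differentiated surface cells, at 12.09 ± 0.13. Sult1a1, a phenol sulfotransferase, stood at 12.65 ± 0.20 and Cyp2c55, a cytochrome P450, at 12.26 ± 0.18. Car4, a membrane carbonic anhydrase, read 11.84, 11.84, 11.89 and 12.09, and Slc26a3, the chloride-bicarbonate exchanger, 9.72, 10.21, 9.80 and 9.40. The summed linear signal of the list was 55441, 61855, 50693 and 55261 on arrays 1 to 4, a ratio of 1.22 between highest and lowest. In a bulk sample, more cells of a type cannot be told apart from more RNA per cell.

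Some markers of other epithelial types were above background. Of 24 enteroendocrine genes 10, or 41.7%, were so on all 4 arrays, below the 45.9% of all genes. Among them were Sct, secretin, at 11.12, 10.16, 11.24 and 11.21, and Pyy, the ileal and colonic hormone, at 9.59, 10.15, 10.71 and 10.19. Chga, chromogranin A, read 9.26, 7.95, 8.48 and 9.75. Insl5, a hormone of colonic L cells, read 5.84, 7.61, 7.90 and 6.64, and Neurod1, a factor of the lineage, stood at 7.52 ± 0.48. The summed signal of the list was 5456, 4078, 6330 and 6752, lowest on array 2, and 9 of the 10 genes had a range of at least 1 log2, against 20.0% of all 7612 genes. Tuft cell genes reached 11 of 21, led apart from Cd24a by Bmx at 6.93 ± 0.20, with Dclk1 at 6.30 ± 0.18 and Trpm5 above background on 3 arrays, while Pou2f3 and Il25 were on none. Of the crypt base and stem list, 12 of 18 were detected on all 4 arrays and Ascl2 on 3. Among the 12, Lgr5, the Wnt-responsive stem cell receptor, read 6.37, 6.94, 7.67 and 6.43 and Cd44 8.90, 8.40, 10.13 and 9.09. Array 3 was the highest for 7 of the 12 (37.7% of all genes). The most uneven member, Olfm4, was above background on 2 arrays, at 7.96, 4.84, 4.72 and 7.52, high on arrays 1 and 4. Cell cycle genes were detected for 27 of 32 on all 4 arrays, with Ccnd1 at 11.26 ± 0.19, Plk1 at 10.57 ± 0.22, Mcm6 at 10.98 ± 0.18 and Top2a at 7.96 ± 0.37. Their summed signal was lowest on array 1, at 13970, and 15903 to 17864 on the other 3.

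Markers of cells outside the gate were seldom above background on all 4 arrays, although genes of both excluded antigens were. Ptprc, which encodes CD45, read 6.60, 5.73, 6.42 and 6.24 and Cd24a, which encodes the other excluded antigen, 9.97, 10.19, 10.84 and 10.20. Of 26 genes of T and intraepithelial lymphocytes, 3 were above background on all 4 arrays, 13 on 1 to 3 and 10 on none, among the last Cd3g, Cd8b1 and Gzmb. Cd3e was above background on 2 arrays and Gzma, a granzyme, on 3, at 7.02, 5.05, 5.98 and 8.06. Ccl5, a chemokine of these cells, read 8.17, 6.36, 6.70 and 8.97 and Laptm5, a lysosomal protein of leukocytes, 8.38, 5.76, 6.77 and 8.65. The summed signal of the list was 1460 and 1967 on arrays 1 and 4 and 593 and 688 on arrays 2 and 3. B and plasma cell genes were above background for 1 of 11, Blnk, at 8.10, 8.49, 7.86 and 8.26, and Cd79a was on none. Among 17 myeloid genes 2 were detected on all 4 arrays and 4 on 1 to 3. Of these 4, Lyz2 and Tyrobp read 6.76, 5.27, 4.80 and 6.83 and 5.86, 4.94, 4.64 and 6.84, higher on arrays 1 and 4. The summed signal of the myeloid list was nearly even, at 2324, 2268, 2321 and 2343. Among 20 genes of stroma and vessels 2 were detected on all 4, Acta2, at 8.92, 8.999, 9.50 and 9.30, and Tagln. Col1a1 was above background on no array and Pecam1 on 1.

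Transcripts of Paneth cells, which line small-intestinal crypts and make antimicrobial peptides, were high on some arrays and low on others. Lyz1, the Paneth cell lysozyme, read 11.34, 7.66, 6.11 and 11.04. Arrays 1 and 4 were high and arrays 2 and 3 low, a 37.6-fold difference between extremes and a 12.8-fold one without array 3. The size of the difference depends on the processing. The range of Lyz1 was 5.23 log2 here, 4.67 with an offset of 50 and 6.05 from the authors' processed values. Its other probes read 10.59, 6.14, 4.64 and 10.42, and 9.56, 5.86, 4.46 and 9.60, in the same order of arrays 1 and 4 over 2 over 3. Alpha-defensins form a family of very similar copies, and which member a probe reads is uncertain. The probe named for Defa39 read 11.26, 8.30, 5.72 and 11.45, the largest range of the 7612 genes, 5.73 log2 over all arrays and 3.15 without array 3. That of Defa20 read 11.67, 8.33, 5.19 and 11.61, and that of Defa22 read 10.30, 5.23, 5.23 and 10.44, above background on arrays 1 and 4 only. Defa21 and Defa26 followed the same order. Itln1, an intelectin, read 11.60, 9.13, 8.89 and 11.54. Ang4, an angiogenin of Paneth and goblet cells, read 10.09, 10.15, 9.43 and 10.92, and Mmp7, which activates alpha-defensins, was above background on 3 arrays at 7.29, 5.15, 6.55 and 7.59, high on arrays 1 and 4 but lowest on array 2. Mptx1 and Nupr1 were nearly even, at 12.45, 12.84, 12.26 and 12.72 and 11.53, 11.27, 11.38 and 11.31. Over the 13 genes with a probe, the summed signal was 23548, 12298, 8942 and 24838.

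Genes of small-intestinal enterocytes were likewise uneven, with their summed signal highest on array 4. Apoa1 and Apoa4, apolipoproteins of fat export, read 9.79, 7.71, 5.47 and 11.75 and 8.30, 7.16, 4.69 and 10.94, above background on arrays 1, 2 and 4. Treh, the brush border trehalase, read 8.74, 6.63, 6.30 and 9.67. Mttp, which loads lipid onto apolipoprotein B, read 7.37, 5.78, 5.64 and 8.72, and Anpep, aminopeptidase N, 7.16, 6.07, 4.62 and 9.54, all highest on array 4. Sis, sucrase-isomaltase, read 9.17, 6.74, 7.25 and 8.64, highest on array 1. Ada, adenosine deaminase, was also highest on array 4, at 8.42, 7.96, 7.32 and 10.97, with a range of 3.65 that was 1.10 without that array. Without array 4 the range of Mttp was 1.72 in place of 3.08. The second probe of Ada read 4.90, 5.56, 5.24 and 8.38. Other members did not share the pattern: Fabp6, the ileal bile acid binding protein, read 11.31, 10.67, 10.58 and 10.52, Slc5a1, the sodium-glucose cotransporter, stood at 10.31 ± 0.25 and Mep1a, a meprin metalloprotease, at 10.61 ± 0.16. Fabp1, the liver-type fatty acid binding protein, and Akp3 were not above background on any array. The list was above background on all 4 arrays for 16 of 28, and its summed signal was 13471, 8266, 9226 and 18884. The lymphocyte list, given above, was also highest on arrays 4 and 1. The part of cells of another type in these array differences was not tested.

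**Figure D3:**
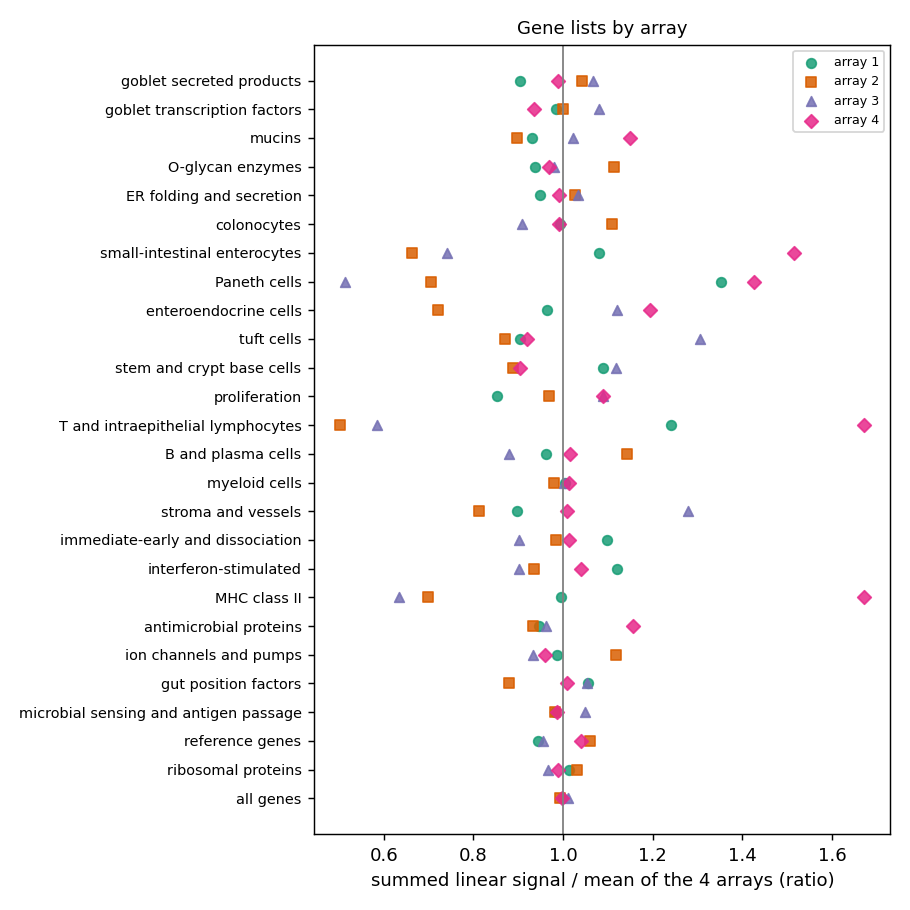
Summed linear normalized signal of each gene list on each colon array, divided by the mean of its 4 arrays (horizontal axis, ratio, with 1 at the line), 1 point per array. The Paneth, enterocyte and lymphocyte lists lie above 1 on arrays 1 and 4 and below 1 on arrays 2 and 3, while the goblet, glycan and folding lists lie near 1 on all 4 arrays.

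Most genes differed little between the 4 arrays. The median range was 0.63 log2 and the median SD 0.28. A range of at least 1 log2, or 2-fold, was found for 1525 genes (20.0%), and of at least 2 log2, or 4-fold, for 75 (0.985%). Without array 3 the first count was 687, or 8.62%, without array 2 it was 958, and without arrays 1 and 4 in turn 1141 and 1294. The spread depended on signal: the median range was 0.79 in the dimmest of 4 equal bins of mean signal and 0.45 in the brightest. Without array 3, 32 genes had a range of at least 2 log2 over the other 3 arrays, without array 2 there were 41, and without arrays 1 and 4 in turn 56 and 63. Fewer arrays give smaller ranges by construction.

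Array 3 was the lowest for 47 of the 75 genes, and array 2 the highest for 35. Over all 7612 genes, array 3 was the lowest for 24.5% and array 2 the highest for 22.7%. Array 3 was itself the highest for 37.7% of all genes, so it was not low in general. Values on array 3 lay below all other arrays by at least 1 log2 for 103 genes and above all others for 58. For arrays 1, 2 and 4, the low counts were 29, 26 and 4 and the high counts 9, 10 and 7. Several ribosomal protein genes were among the low ones on array 3. None of the 5 given next had a second probe above background on all 4 arrays to check them. Rps6, of the small subunit, read 10.68, 10.90, 6.54 and 10.41, and Rps2 9.97, 11.93, 7.22 and 10.65. Rps7, Rps13 and Rpl24 read 10.71, 11.12, 8.33 and 10.57, 10.89, 11.53, 8.74 and 11.31 and 11.44, 11.95, 9.34 and 11.56 respectively, in which array 3 lay apart from the rest. Of 55 ribosomal protein genes above background on all 4 arrays, 5 had a range of at least 2 log2, and array 3 was the lowest for 23, where it was for 24.5% of all genes. Without array 3 none of them reached a range of 2 log2: Rps2 had 1.96, Rps6 0.49, Rps7 0.55, Rps13 0.63 and Rpl24 0.52. The median range over the 55 was 0.41, and 10 had a range of at least 1 log2, or 2 of 56 without array 3. Probes of 1 gene could disagree: the brighter probe of Rps9 read 14.39, 14.39, 14.61 and 14.45, and the dimmer probe 11.78, 12.38, 10.23 and 12.23, low on array 3.

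Low values on array 3 were also seen for genes of other functions. Tuba1b, an alpha-tubulin, read 10.05, 11.22, 7.72 and 10.62. Sdc4, a heparan sulfate proteoglycan of the cell surface, read 9.20, 10.52, 7.48 and 10.03. Coq9, a protein of ubiquinone synthesis, and Glud1, glutamate dehydrogenase, read 8.40, 9.01, 6.18 and 8.45 and 8.57, 8.88, 6.24 and 7.87. None of Tuba1b, Sdc4, Coq9 and Glud1 had a second probe above background on all 4 arrays. Psmb7, a proteasome subunit, read 9.90, 10.003, 7.75 and 9.95, and its second probe 8.50, 8.63, 7.68 and 8.13. Krt19, a keratin of simple epithelia, read 12.57, 13.06, 11.42 and 12.91, while Krt8 and Krt18 varied by 0.43 and 0.23. Of the 103 genes low on array 3, 24 had a second probe above background on all 4 arrays, and array 3 was also the lowest for 12 of these second probes. Over all 1929 genes with a second probe the lowest array was the same for 829, or 43.0%. Over the 277 of them with a range of at least 1 log2, which the genes low on array 3 also have, it was the same for 155, or 56.0%. The agreement for the genes low on array 3 lies between these shares. Array 3 had the fewest probes above background, 12447 against 12891 to 13385. The part of this lower detection in the low values was not tested.

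A second probe of the same gene, not used to choose it, gives a check on uneven genes. Of the 75 genes with a range of at least 2 log2, 9 had such a probe above background on all 4 arrays, and for 8 of the 9 the highest array was the same. The size of the spread was shared less: these second probes had a median range of 0.96. Of them 4 reached a range of 1 log2, where 457 of the 1929 second probes over all genes did. So did 132 of the 277 second probes of genes with a range of at least 1 log2. The lowest array was the same for 4 of the 9, or 44.4%. This is near the share over all genes given above and below the 56.0% over genes with a range of at least 1 log2. Without array 2, there were 2 such genes and 0 of them shared the highest array, and without array 3 all 3 of 3 did. Over all 1929 genes with a second probe, the highest array was the same for 919, or 47.6%. Over the 277 with a range of at least 1 log2 it was the same for 168, or 60.6%. For Vamp1, a vesicle SNARE protein, both probes were highest on array 3 and lowest on array 2, at 7.61, 6.81, 8.92 and 7.68 and at 7.37, 6.93, 8.87 and 7.75.

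Which genes were the most uneven rested in part on single arrays. Of the 50 genes with the largest range, 17 were among the 50 without array 3, 31 without array 2 and 41 to 43 without array 4 or 1. For 14 of the 25 genes of largest range, the range changed by more than 1.5 times without array 3, Tuba1b from 3.51 to 1.17 among them, and for 5 without array 2, Defb37 from 2.60 to 0.76 among them.

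**Figure D4:**
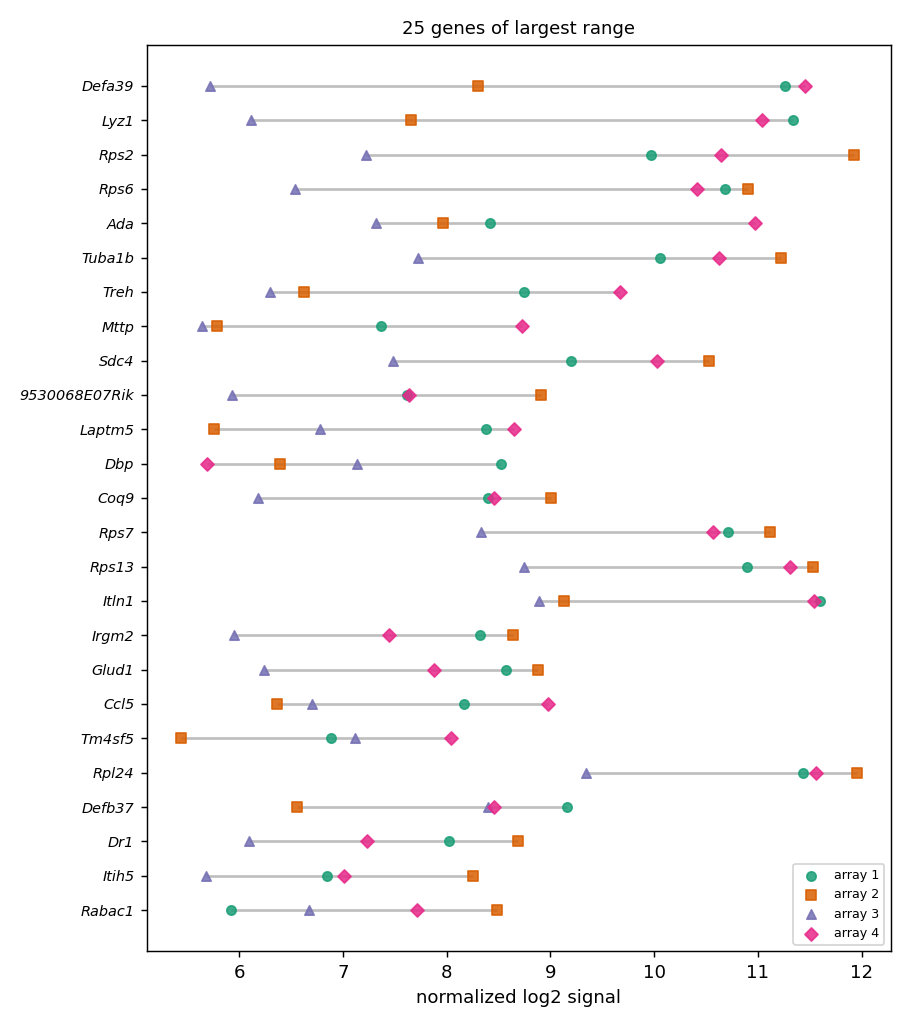
Normalized log2 signal (horizontal axis) of the 25 genes with the largest range among the 7612 genes above background on all 4 colon arrays, 1 point per array, ordered by range. Defa39 and Lyz1 are high on arrays 1 and 4, while Rps2, Rps6 and Tuba1b are low on array 3 alone.

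Further uneven genes belonged to other groups. Dbp, a clock-controlled transcription factor, read 8.53, 6.39, 7.13 and 5.69, highest on array 1, with a range of 2.84 that was 1.44 without that array. Irgm2, an interferon-induced GTPase, read 8.32, 8.64, 5.95 and 7.45, low on array 3, with a range of 2.69 that was 1.19 without it. Interferon-stimulated genes as a list were detected for 20 of 29, and their summed signal was 12521, 10451, 10078 and 11620. Rabac1, a Rab acceptor, read 5.92, 8.49, 6.67 and 7.71, lowest on array 1. Among immediate-early genes, which are known to respond rapidly to cell handling, Klf6 stood at 13.03 ± 0.15, Egr1 at 12.64 ± 0.17, Dusp1 at 11.82 ± 0.19 and Fos at 10.70 ± 0.59. Of this list 18 of 25 were above background on all 4 arrays, with a median range of 0.69, and array 1 was the highest for 10 of the 18 (24.0% of all genes).

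The least variable genes were sought among those above the median signal and outside the 100 brightest, since quantile normalization gives equal values to probes that hold the same rank. Slc38a2, an amino acid transporter, varied least, at 9.61, 9.60, 9.61 and 9.61, a range of 0.015. Ubl3, a ubiquitin-like protein, read 10.65, 10.69, 10.66 and 10.66, and Rbx1, a ring subunit of cullin ligases, 12.35, 12.37, 12.36 and 12.33. Ndufv3, of respiratory complex I, had a range of 0.040 and Tff3 of 0.046, the fifth smallest. Naca, a chaperone of nascent chains, Nisch and Cdipt, which makes phosphatidylinositol, had ranges of 0.053, 0.061 and 0.062. Serinc3, Nfyb, Taf10 and Mrpl24 had ranges of 0.072, 0.070, 0.060 and 0.072.

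Genes in common use as references differed in evenness. Eef1a1, Ywhaz and Rpl13a had ranges of 0.18, 0.18 and 0.17, and Gapdh and Actb of 0.52 and 0.58. Hprt had a range of 0.69, Tfrc, the transferrin receptor, of 1.72, and Tuba1b of 3.51. Pgk1 was not above background on any array.

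**Figure D5:**
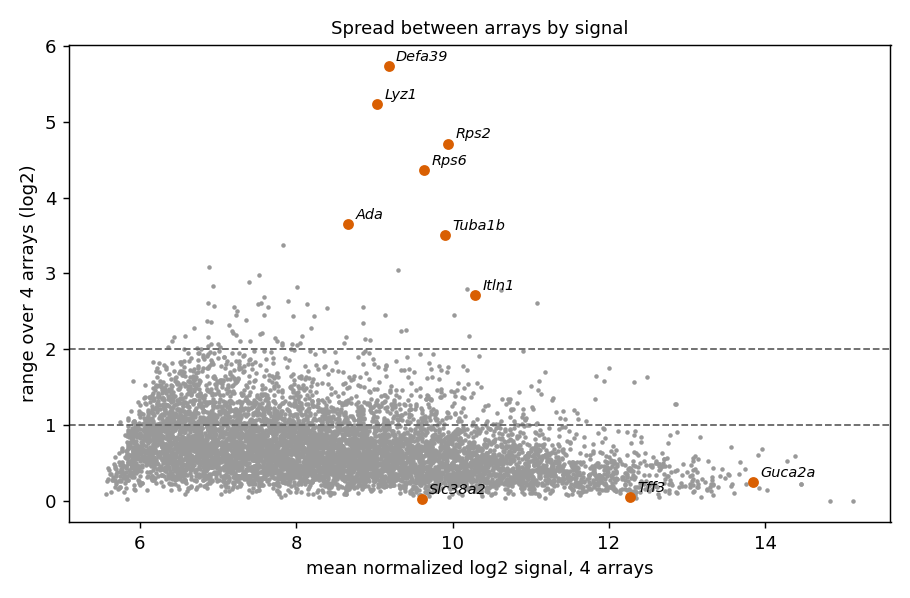
Range over the 4 colon arrays (vertical axis, log2) against mean normalized log2 signal (horizontal axis) for the 7612 genes above background on all 4 arrays. Lines mark ranges of 1 and 2 log2, and named points show that Lyz1 and Rps2 lie far above the bulk whereas Tff3 and Slc38a2 lie at its lower edge.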

How the data were processed

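Sorted cells were lysed and their RNA extracted, amplified, biotin-labelled and hybridised to Illumina mouse arrays, per the labels' protocols. The deposited intensity values were unscaled probe signals, and the deposited detection p-values compared each probe with the array's negative controls. A table of the authors' processed intensity values was a straight-line function of the same signals, scaled to an equal mean. The scanner software is not given in the sources used here. 1 corrupted signal cell was restored from that line. Signals of all 8 arrays were background-corrected and quantile-normalized with neqc (limma 3.58.1, R 4.3.3, offset 16) and read on the log2 scale. Of 25697 probes, 23978 had 1 gene symbol and 1719 none. The probe with the highest colon mean stood for a gene. The range calculation was tested on simulated data. No test between groups was made, since the colon arrays are described on their own. Named genes were the markers, the 25 brightest, the 25 of largest range, the 15 of smallest range above the median, the 10 of largest range on 1 to 3 arrays, and up to 4 brightest and 4 most uneven members of each list. Other list members were chosen after their values were seen. Members and lists were chosen with earlier results of these data known. Alternatives changed the normalization, offset, detection threshold, probe choice and arrays used.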

Additional observations from a re-analysis of the deposited data

Results flagged for a closer look

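Within the 4 arrays, a gene was set aside here when 1 array lay far from the other 3, by Dixon's criterion at 95%. Of the 184 genes whose values are given, 9 met it (4.89%), and of all 7612 genes above background on all 4 arrays 382, or 5.02%. Chance gives about 5 in 100, and both shares are close to it. Array 3 was lowest for Rps6, at 6.54, and for the proteasome gene Psmb7, at 7.75. Array 2 was lowest for the secretin gene Sct, at 10.16, and for Slc5a1, at 9.94, and highest for Ano1, at 10.44, and for Ubl3, at 10.69. The last differs from the other arrays by little, since its range was 0.033. Array 1 was highest for Gfi1, at 8.13, and lowest for Hoxa11, at 8.60. Array 4 was highest for Reg3g, at 10.64.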

How the results depend on the processing

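No paired analysis was possible because the results come from no test between groups, by the choice to describe the colon arrays alone. The 7612 genes above background on all 4 arrays became 6846 at a detection p below 0.01 and 7620 when any probe counted. Over 3 arrays the count was 7712 to 7967. Of the 100 brightest genes, 75 to 100 were shared under the alternatives, the fewest with the mean of all probes, and 95 to 98 with 1 array left out. The count of 75 genes with a range of at least 2 log2 moved most. It was 242 without scaling between arrays, 37 with an offset of 50, 235 from the authors' processed values, 48 at a detection p below 0.01 and 184 without a filter on dim probes. It was 83 with normalization of the colon arrays alone, 69 with the mean of probes, and 32 to 63 with 1 array left out. Without scaling, the array medians ran from 7.88 on array 3 to 8.47 on array 2, so ranges there hold overall brightness too. Second probes shared the highest array for 67.5% to 100% of genes under the alternatives and for 0% to 100% with 1 array left out, the former without array 2. The ratio of highest to lowest array was 2.70 to 3.52 for the Paneth list, 2.24 to 2.79 for the enterocyte list and 4.13 to 4.29 for the lymphocyte list, without scaling and from the authors' values, the 2 alternatives run for them. With 1 array left out these ratios were 2.02 to 2.78, 1.63 to 2.28 and 2.46 to 3.32. Of the 50 genes of largest range, 33 were shared at a detection p below 0.01 and 18 without a filter on dim probes. The number of arrays limits the precision of every spread, and signal near 5.61 or below cannot be ordered.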

Other observations

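Genes of the circadian clock, a list added after the values were seen, were uneven in part. Tef, a relative of Dbp, read 10.23, 9.28, 9.26 and 9.02, and Nr1d2, a nuclear receptor of the clock, 11.42, 10.81, 10.65 and 10.22. Both were highest on array 1 and lowest on array 4, as was Dbp. Per2, a period gene, was above background on 3 arrays, at 7.70, 6.25, 5.24 and 6.20, also highest on array 1. Nr1d1 was even, at 8.58, 8.64, 8.45 and 8.55, and Arntl, the activator of the clock, read 6.74, 7.39, 7.04 and 7.08, lowest on array 1. Of 17 clock genes with a probe, 9 were above background on all 4 arrays. The labels give no time of day.

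MHC class II genes were above background on all 4 arrays for 1 of 9, and their summed signal was 411, 288, 261 and 689, highest on array 4, as were the sums of the lymphocyte and Paneth lists. Xist, the transcript of the inactive X chromosome, read 11.03, 10.65, 10.80 and 10.80. Of the Y-linked genes, Eif2s3y and Kdm5d were above background on no array, and Uty was on all 4 but close to the lowest detectable values, at 5.73, 5.82, 5.87 and 5.61.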
